A study of Mus musculus with 6 samples.

Results

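The genes described here are 39 genes of homologous recombination, the Fanconi anemia pathway and the DNA damage checkpoint, chosen by name and matched by versioned Ensembl identifier to GENCODE release M21, out of 55450 genes in the count files and 17037 tested. All 39 passed the filter of at least 10 counts in at least 3 libraries. Their expression was measured by bulk RNA-Seq in primary hepatocytes of C57BL/6 mice (C57BL/6J in the study's methods) on a normal diet. The mice were male by the methods and aged 10 to 12 weeks by the sample labels, while the methods give a somewhat younger age at the operation. The cells were obtained by collagenase perfusion, an enzymatic digestion of the whole liver that frees hepatocytes for purification. Each group held 3 libraries, from undamaged liver that had no sham operation (0 h) or from liver 48 h after partial hepatectomy (PHx), an operation that takes out most of the liver. The study describes separate preparations from 3 mice at each time point, so the animals at 48 h are not those at 0 h. The libraries at 0 h held 31419443 to 36346220 reads counted on genes, and those at 48 h held 31684152 to 33093006. Anesthesia, surgery and time since the operation were not separated by this design.

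Homologous recombination mends broken DNA by copying the intact sister chromatid, and it works mainly in S and G2 phase, when a sister is present. The BRCA proteins prepare single-stranded DNA for strand exchange, the Fanconi pathway marks and unhooks crosslinks that stop a replication fork, and the ATR and ATM kinases sense the damage and hold the cell cycle through CHK1 and CHK2. Hepatocytes of the adult liver are mostly quiescent and re-enter the cell cycle after resection, so these genes can be followed here from rest into a proliferative state.

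Of the 39 genes, 33 (84.6%) were higher at 48 h after PHx, 1 was lower and 5 did not pass the threshold, set at an adjusted p of 0.05 (edgeR, quasi-likelihood test, Benjamini-Hochberg over all genes tested). Among all 17037 genes tested, 21.4% were higher and 19.3% were lower by the same rule. The median log2 fold change of the 39 genes was 2.50, with a range from -0.54 to 6.83, and over all genes tested it was 0.00. The groups did not overlap in 37 genes with 48 h above 0 h and in 1 gene with 48 h below it, against 27.7% and 25.0% of all genes tested. A log2 fold change of at least 1 was reached by 26 of the 33 higher genes, against 9.69% of all genes tested, and a log2 fold change over 4 by 9, against 1.46%. A log2 fold change of -1 or less was reached by 7.94% of all genes tested, and the lowest value among the 39 genes was -0.54. In bulk samples, more cells that carry a transcript and more transcript per cell cannot be told apart. Levels are given as CPM, the reads counted on a gene scaled to the TMM-normalized total of gene counts in the library, and levels of different genes are compared per kilobase of merged exons.

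**Figure D1:**
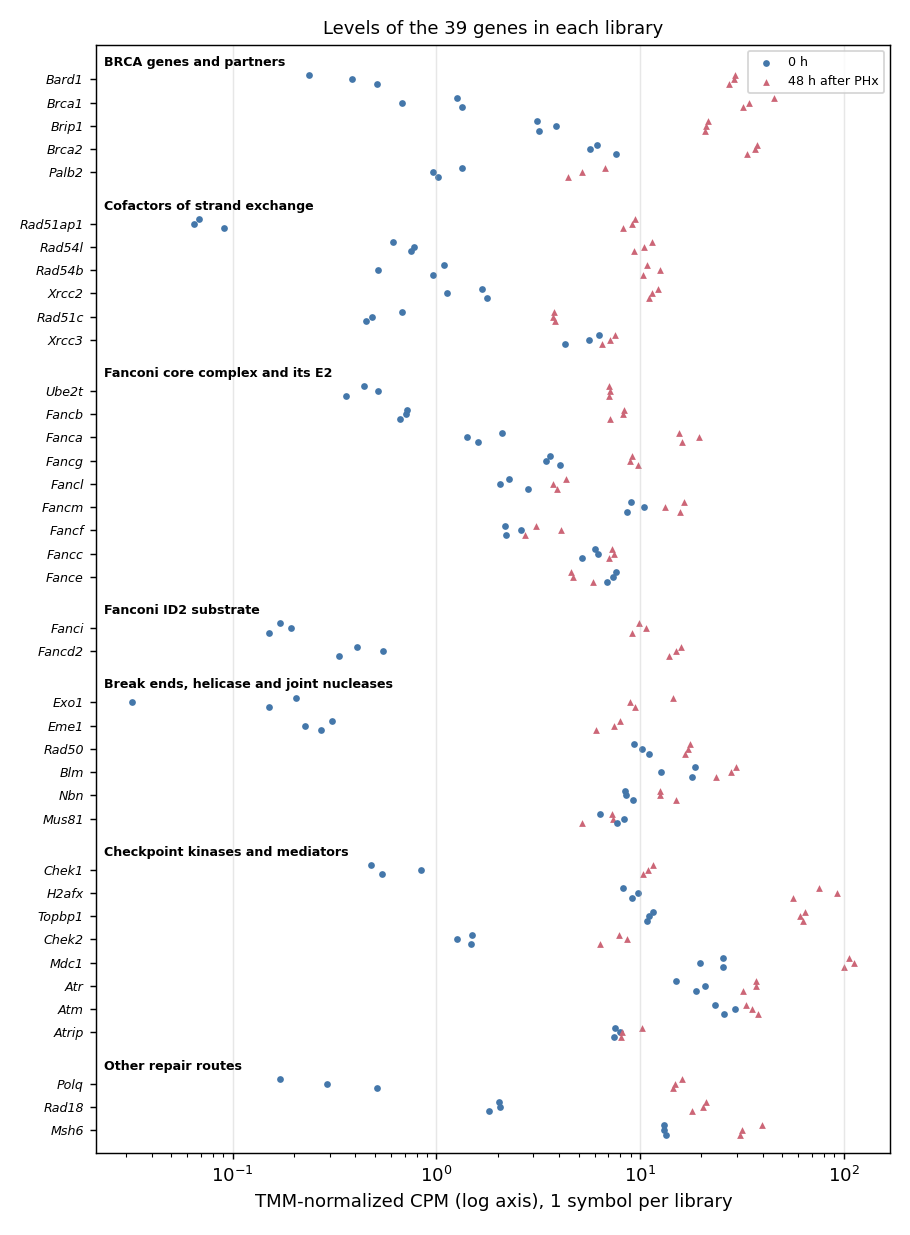
TMM-normalized CPM (log axis) of each of the 39 genes, grouped by role, with 1 circle per library at 0 h and 1 triangle per library at 48 h after PHx. The genes lowest at 0 h, such as Rad51ap1, Exo1 and Fanci, sit near those of higher starting level at 48 h, and only Fance has all its 48 h libraries below its 0 h libraries.

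Genes with low levels at 0 h had the larger fold changes. Those below 1 CPM at 0 h were 13 genes, and all 13 rose by a log2 fold change of 2.81 to 6.83 (median 4.73). Among the 10 genes between 1 and 5 CPM the range was 0.51 to 5.10 (median 2.54), and 9 passed the test. Among the 16 genes above 5 CPM it was -0.54 to 3.05 (median 0.71), with 11 higher and 1 lower. The 0 h level enters both quantities in this description. The spread between genes was smaller at 48 h. Per kilobase, the lowest mean level at 0 h was that of Exo1 at 0.0153 CPM per kb and the highest that of H2afx at 6.52 CPM per kb, a ratio of 426. At 48 h the lowest was Palb2 at 0.743 CPM per kb and the highest H2afx at 54.2 CPM per kb, a ratio of 72.9. The SD of the log2 level over the 39 genes was 2.33, 2.47 and 2.29 in the 3 libraries at 0 h and 1.13, 1.18 and 1.12 in the 3 at 48 h, with no overlap. The median level of the 39 genes went from 0.470 to 2.22 CPM per kb, while the median of all genes tested was 2.0 CPM per kb at 0 h and 2.11 CPM per kb at 48 h.

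Promoter windows of RefSeq on GRCm38.p6, each running from 250 bases before to 50 bases after a start, were available by symbol for 32 of the 39 genes, in 35 windows. Exo1, Fancd2, H2afx, Nbn, Rad50, Rad54b and Xrcc2 had no match. The letters TTTCCCGC and GGCGGGAA, which are forms of the site bound by E2F factors, the regulators of S-phase genes, were searched on both strands. Read on opposite strands the runs share the letters GCGGGAA, so overlapping matches are possible. TTTCCCGC occurred in 7 windows (20.0%) and in 1.07% of all 32851 windows, or 1.85% of the 14007 windows of genes tested. GGCGGGAA occurred in 8 windows (22.9%), against 2.19% and 3.67%. Together they were found in 12 windows (34.3%) of 12 genes, against 2.73% of all windows and 4.58% of those of genes tested. Those 12 genes were Bard1, Brca2, Chek1, Chek2, Fancb, Fancg, Fancm, Mdc1, Msh6, Polq, Rad51ap1 and Rad51c. All 12 were higher at 48 h, with log2 fold changes from 0.69 to 6.83, in a set of genes of which 84.6% were higher. Another form, TTTGGCGC, was found in 0 of the 35 windows, against 0.514% of all windows and 0.907% of those of genes tested. TTTGAA, the letters of the cell cycle genes homology region, occurred in 3 windows (8.57%), against 17.9% of all windows and 12.8% of those of genes tested, and CCAAT, the letters bound by the factor NF-Y, in 20 (57.1%), against 37.4% and 37.6%. A match is a description of these letters and no evidence of binding.

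Windows of 4 genes with a run and of Fance, the 1 lower gene, show where the letters stand, with the run in capitals, 5′ to 3′ on the gene's strand. The windows are chr6:126939538-126939837 on the minus strand for Rad51ap1, chr1:71102923-71103222 on the minus strand for Bard1, chr16:37011536-37011835 on the plus strand for Polq, chr9:36726609-36726908 on the minus strand for Chek1 and chr17:28313280-28313579 on the plus strand for Fance. The first capital lies 11 bases after the start in Rad51ap1, 9 bases after it in Polq and 42 bases after it in Chek1. In Bard1 it lies at -209, before the start. The Fance window holds neither run.
Rad51ap1: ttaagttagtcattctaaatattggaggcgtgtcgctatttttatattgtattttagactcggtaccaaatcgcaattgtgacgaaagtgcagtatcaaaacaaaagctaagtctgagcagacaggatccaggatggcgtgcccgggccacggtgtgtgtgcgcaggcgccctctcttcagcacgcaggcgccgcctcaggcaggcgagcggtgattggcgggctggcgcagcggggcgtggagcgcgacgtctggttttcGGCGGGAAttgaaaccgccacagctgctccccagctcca
Bard1: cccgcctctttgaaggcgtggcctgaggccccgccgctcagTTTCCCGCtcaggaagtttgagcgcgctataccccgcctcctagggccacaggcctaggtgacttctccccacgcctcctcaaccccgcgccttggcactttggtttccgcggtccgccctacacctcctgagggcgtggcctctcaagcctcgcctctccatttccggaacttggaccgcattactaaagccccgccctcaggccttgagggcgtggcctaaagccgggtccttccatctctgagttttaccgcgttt
Polq: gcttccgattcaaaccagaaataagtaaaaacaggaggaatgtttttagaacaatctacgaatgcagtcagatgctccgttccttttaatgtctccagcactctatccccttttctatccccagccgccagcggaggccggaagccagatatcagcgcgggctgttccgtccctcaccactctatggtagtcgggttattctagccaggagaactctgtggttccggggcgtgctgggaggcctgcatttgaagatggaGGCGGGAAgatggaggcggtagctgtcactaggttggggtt
Chek1: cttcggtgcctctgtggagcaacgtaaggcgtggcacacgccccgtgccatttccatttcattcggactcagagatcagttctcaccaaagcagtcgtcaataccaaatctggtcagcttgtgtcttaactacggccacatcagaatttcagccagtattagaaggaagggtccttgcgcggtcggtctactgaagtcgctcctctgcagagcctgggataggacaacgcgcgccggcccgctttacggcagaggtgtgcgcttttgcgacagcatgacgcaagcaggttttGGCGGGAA
Fance: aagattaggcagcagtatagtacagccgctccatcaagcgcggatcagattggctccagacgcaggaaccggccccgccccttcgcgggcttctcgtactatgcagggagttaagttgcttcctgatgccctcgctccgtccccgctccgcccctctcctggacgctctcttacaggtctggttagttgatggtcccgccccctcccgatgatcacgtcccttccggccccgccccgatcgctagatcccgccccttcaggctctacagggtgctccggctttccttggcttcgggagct

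The BRCA genes and their partners were all higher at 48 h. Brca1 encodes a ubiquitin ligase and scaffold of recombination, and its heterodimer partner is Bard1. Brca1 (chromosome 11, 101488764 to 101551955, GRCm38) was at 1.26, 0.677 and 1.33 CPM at 0 h and at 45.5, 34.3 and 32.2 CPM at 48 h. Every 48 h library was far above every 0 h library, a 34.3-fold difference of means (log2 fold change 5.10, SE 0.235, edgeR adjusted p = 1.26e-07). Bard1 (chromosome 1, 71027498 to 71103146) was at 0.238, 0.387 and 0.512 CPM at 0 h and at 29.2, 29.1 and 27.3 CPM at 48 h, a 75.2-fold difference of means (log2 fold change 6.20, SE 0.202, edgeR adjusted p = 2.34e-08). Brca2, a mediator of strand exchange, was already present at 0 h, with 6.13, 5.67 and 7.62 CPM, and stood at 37.4, 36.6 and 33.6 CPM at 48 h. Its difference was 5.54-fold (log2 fold change 2.47, SE 0.135, edgeR adjusted p = 3.89e-07). Palb2, the bridge between BRCA1 and BRCA2, was at 0.967 to 1.33 CPM and then at 4.45 to 6.71 CPM, 4.93-fold higher. Brip1, the BRCA1-bound helicase, was at 3.13 to 3.87 CPM and then at 20.8 to 21.6 CPM, 6.22-fold higher. The groups did not overlap in any of the 5 genes.

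Of 6 cofactors of strand exchange, 5 were higher, and this group held the highest log2 fold change among the 39 genes. Rad51ap1, which helps strand invasion, had 2, 2 and 3 counts in the libraries at 0 h, which is within the 3 counts taken as the floor of a library. At 48 h it stood at 9.41, 9.17 and 8.28 CPM. Over the groups, 7 counts stood against 935, a ratio of levels of 119.7 with an exact binomial 95% interval from 57.9 to 299 that covers counting error only (log2 fold change 6.83, SE 0.261, edgeR adjusted p = 4.72e-08). Rad54l, a motor protein of recombination that moves along DNA, went from 0.613, 0.773 and 0.753 CPM to 11.4, 10.5 and 9.37 CPM, 14.6-fold higher. Its relative Rad54b was 13.1-fold higher, at 10.3 to 12.5 CPM at 48 h, but 35.8% of its exon bases also lie in exons of Fsbp on the same strand, so its level is less certain. Rad51c, a subunit of the complexes of XRCC2 and of XRCC3, was 7.02-fold higher, at 0.452 to 0.681 CPM and then at 3.75 to 3.83 CPM. Xrcc2, of the complex that holds no XRCC3, was 7.59-fold higher. Xrcc3, which pairs with RAD51C alone, was at 6.30, 5.61 and 4.28 CPM at 0 h and at 7.54, 7.13 and 6.54 CPM at 48 h. These groups did not overlap, but the log2 fold change of 0.39 (SE 0.174) did not pass (edgeR adjusted p = 0.0973).

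The Fanconi core complex was split. This nuclear ubiquitin ligase, with FANCL as its catalytic subunit and UBE2T as its conjugating enzyme, adds ubiquitin to FANCD2 and FANCI. Of the 9 genes, 6 were higher, 1 was lower and 2 did not pass, with a median log2 fold change of 0.73. Ube2t rose the most, from 0.443, 0.516 and 0.361 CPM to 7.01, 7.10 and 7.05 CPM, 16.0-fold (log2 fold change 4.0, SE 0.213, edgeR adjusted p = 3.38e-07). Fancb and Fanca, a subunit beside FANCL and the subunit that joins FANCG, were 11.4-fold and 9.99-fold higher. Fancg was 2.51-fold higher (log2 fold change 1.33, SE 0.147). Fancl itself rose less, from 2.06 to 2.83 CPM at 0 h to 3.75 to 4.31 CPM at 48 h, 1.67-fold (edgeR adjusted p = 0.0123), and Fancm, the helicase-like subunit that brings the complex to DNA, rose 1.61-fold (edgeR adjusted p = 0.00259). Fancc and Fancf, a subunit that pairs with FANCE and an adaptor of the complex, differed by a log2 fold change of 0.33 (edgeR adjusted p = 0.0961) and 0.51 (edgeR adjusted p = 0.0855) and did not pass.

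Fance, which links the core to FANCD2, was the 1 lower gene (chromosome 17, 28313519 to 28326572). It was at 7.66, 7.38 and 6.87 CPM at 0 h and at 4.57, 4.67 and 5.85 CPM at 48 h. All 3 libraries at 48 h lay below all 3 at 0 h, by a log2 fold change of -0.54 (SE 0.158, edgeR adjusted p = 0.0203). The call was lost with library size scaling (-0.33, edgeR adjusted p = 0.143), and the log2 fold change was -0.50, -0.49 and -0.50 without replicate 1 at 0 h, replicate 1 at 48 h or replicate 2 at 48 h (edgeR adjusted p = 0.0632, 0.0600 and 0.0693).

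Both substrate genes of the complex had larger fold changes than any of the 9 genes above. Fancd2 (chromosome 6, 113531682 to 113597017) was at 0.409, 0.548 and 0.331 CPM at 0 h and at 15.9, 15.1 and 13.9 CPM at 48 h, 34.9-fold higher (log2 fold change 5.12, SE 0.203, edgeR adjusted p = 5.51e-08). Fanci, its partner in the ID2 clamp, was at 0.170, 0.193 and 0.151 CPM at 0 h and at 9.89, 10.7 and 9.19 CPM at 48 h, 58.0-fold higher (log2 fold change 5.83, SE 0.227, edgeR adjusted p = 5.06e-08). Neither gene had a 48 h library near a 0 h library. Exons of Polg on the other strand cover 16.0% of the exon bases of Fanci.

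Genes acting on break ends and on joined chromosomes differed widely among themselves, with 5 of 6 higher and log2 fold changes from -0.17 to 6.38. Rad50 and Nbn, subunits of the complex that first holds a break, were 1.69-fold and 1.53-fold higher (edgeR adjusted p = 6.07e-04 and 0.00393). The helicase gene Blm was 1.65-fold higher, at 12.7 to 18.6 CPM at 0 h and 23.7 to 29.6 CPM at 48 h. Exo1, the exonuclease that extends resected ends, had 6, 1 and 5 counts at 0 h and stood at 14.5, 8.98 and 9.48 CPM at 48 h. Its 12 counts at 0 h against 1140 at 48 h gave a ratio of 85.1 (exact binomial 95% interval 48.5 to 165, counting error only), with a log2 fold change of 6.38 (SE 0.380, edgeR adjusted p = 6.99e-07).

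The nuclease pair MUS81-EME1, which cuts joint molecules and stalled forks, had one subunit gene that rose and one that did not pass. Eme1, the non-catalytic subunit, was at 0.306, 0.226 and 0.271 CPM at 0 h and at 7.99, 7.47 and 6.11 CPM at 48 h, 26.9-fold higher (log2 fold change 4.73, SE 0.244, edgeR adjusted p = 2.74e-07). Mus81, the catalytic subunit, was at 6.40, 8.35 and 7.71 CPM at 0 h and at 7.33, 7.38 and 5.20 CPM at 48 h. Its groups overlapped, and its log2 fold change of -0.17 (SE 0.180) did not pass (edgeR adjusted p = 0.474) and took the opposite sign, 0.02, with library size scaling.

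Of 8 checkpoint genes, 7 were higher. The fold change was larger for Chek1, the gene of an effector kinase, than for Atr, the gene of its upstream kinase. Chek1 was at 0.477, 0.838 and 0.542 CPM at 0 h and at 11.6, 10.9 and 10.3 CPM at 48 h, 17.7-fold higher (log2 fold change 4.13, SE 0.218, edgeR adjusted p = 3.07e-07). Atr was at 15.1, 20.8 and 18.9 CPM and then at 37.1, 37.1 and 31.9 CPM, 1.94-fold higher (log2 fold change 0.95, SE 0.134, edgeR adjusted p = 2.95e-04). Atrip, which brings ATR to coated single-stranded DNA, was at 7.44 to 7.99 CPM and then at 8.08 to 10.2 CPM, and its log2 fold change of 0.20 did not pass (edgeR adjusted p = 0.291). Topbp1, the activator of ATR, was at 11.6, 11.1 and 10.8 CPM and then at 64.7, 61.1 and 63.1 CPM, 5.65-fold higher (log2 fold change 2.50, SE 0.0997, edgeR adjusted p = 5.62e-08). Atm, which answers double-strand breaks, rose 1.37-fold (log2 fold change 0.45, SE 0.116, edgeR adjusted p = 0.0106), and its target kinase gene Chek2 rose 5.43-fold. Mdc1, the mediator that binds phosphorylated H2AX, was 4.49-fold higher. H2afx, the gene of histone H2AX, was at 8.24, 9.73 and 9.10 CPM and then at 75.5, 93.0 and 56.5 CPM, 8.31-fold higher with the libraries at 48 h widely spread (SD 18.3 CPM, n = 3). Per kilobase it was the highest of the 39 genes at both time points.

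The 3 genes of other repair routes were higher. Polq, the polymerase of theta-mediated end joining, was at 0.170, 0.290 and 0.512 CPM at 0 h and at 16.1, 14.9 and 14.6 CPM at 48 h, 47.0-fold higher (log2 fold change 5.51, SE 0.261, edgeR adjusted p = 1.39e-07). Rad18, the ubiquitin ligase that marks PCNA for lesion bypass, was 10.1-fold higher, from 1.81 to 2.06 CPM to 18.0 to 21.2 CPM. Msh6, a mismatch recognition gene, was 2.58-fold higher, from 13.1 to 13.4 CPM to 31.0 to 39.7 CPM.

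**Figure D2:**
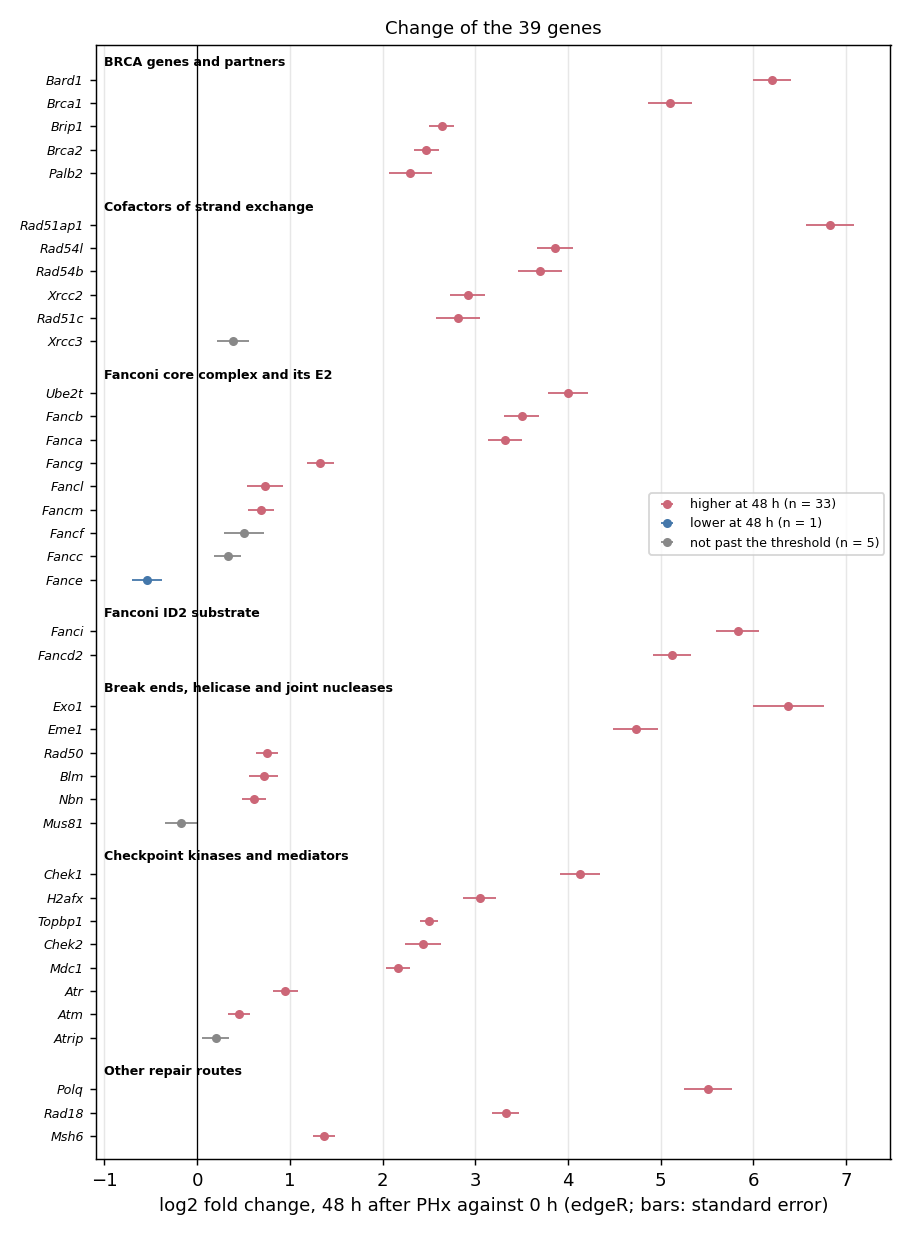
Log2 fold change of each gene at 48 h after PHx against 0 h (x axis), grouped by role, with bars for the standard error from edgeR's quasi-likelihood test and color for the call. Points lie to the right of 0 in 37 of 39 genes, the BRCA1 and ID2 pairs sit past 5, and the Fanconi core complex runs from -0.54 to 4.0.

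In 13 pairs, partners of a complex or kinase step were compared within each library. The measure was the ratio of counts per exon base, which does not depend on how libraries are scaled. Some pairs share a complex or a gene, such as Fancl or Atr, so they are not independent, and other gene pairs were not compared. Ratios did not overlap between the time points in 11 of the 13 pairs, each with a two-sided exact permutation p of 0.1, the smallest that 3 libraries against 3 can give (0.118 after Benjamini-Hochberg adjustment over the 13 pairs). No pair can therefore pass a threshold of 0.05, and the ratios are given as values. Mus81 to Eme1 had the widest difference. It was 16.2, 28.6 and 22.0 at 0 h and 0.711, 0.766 and 0.659 at 48 h, with geometric means of 21.7 and 0.710. So Mus81 transcript stood far above Eme1 transcript at 0 h, and below it in every library at 48 h. Ube2t to Fancl went from a geometric mean of 0.128 to 1.24. For Chek1 to Atr the ratios were 0.161, 0.206 and 0.146 at 0 h and 1.59, 1.49 and 1.65 at 48 h, so per exon base Chek1 was the lower at 0 h and the higher at 48 h, while in CPM, without the division by exon length, Atr was the higher in every library. Fancb to Fancl went from 0.331 to 2.24, and Atr to Atrip went from 0.715 to 1.22.

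Brca1 to Bard1 was 3.51, 1.16 and 1.72 at 0 h and 1.03, 0.782 and 0.783 at 48 h, and Fancd2 to Fanci was 1.75, 2.06 and 1.60 at 0 h and 1.17, 1.02 and 1.10 at 48 h. In both heterodimers the first partner was the higher one in every library at 0 h, and the geometric means went from 1.91 to 0.859 and from 1.79 to 1.10. Fanca to Fancg went from 0.198 to 0.793, Fancc to Fance from 0.303 to 0.556, Rad51c to Xrcc3 from 0.0624 to 0.336 and Chek2 to Atm from 0.186 to 0.736, all as geometric means. In these 4 pairs the second gene was the higher one per exon base at both time points. Brca2 to Palb2 was 3.15 at 0 h and 3.59 at 48 h with overlapping libraries (exact permutation p = 0.600), and Rad50 to Nbn was 0.549 and 0.609 with overlapping libraries (exact permutation p = 0.300). Exon bases are those of all annotated transcripts of a gene, so a ratio between genes depends on annotation, whereas its change between time points does not.

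**Figure D3:**
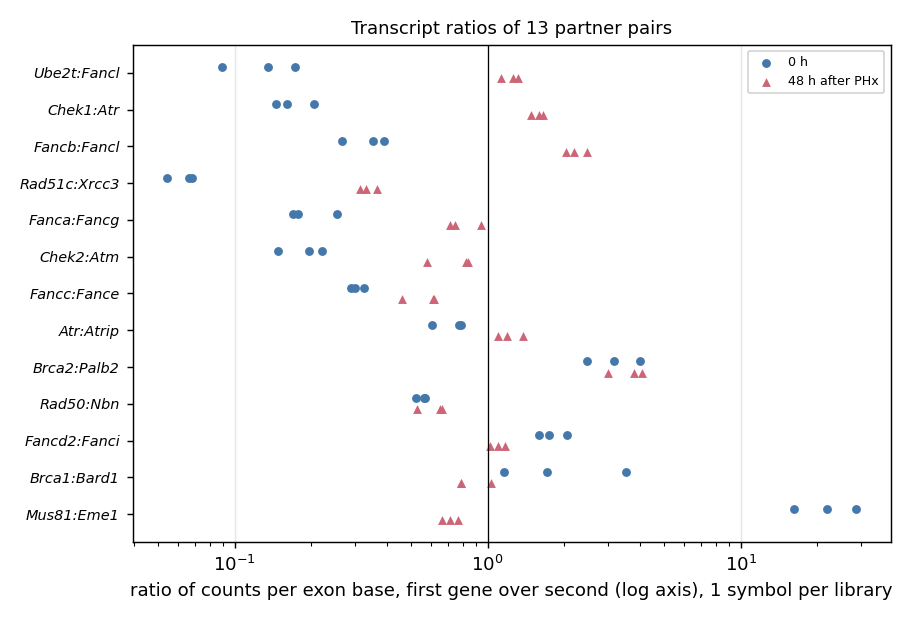
Ratio of counts per exon base of the first gene to the second (log axis) for 13 partner pairs, with 1 circle per library at 0 h and 1 triangle per library at 48 h after PHx, and a line where the genes are equal. The Mus81 to Eme1 ratio falls from 16.2 or more to 0.766 or less, while the libraries of Brca2 to Palb2 and of Rad50 to Nbn overlap.

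The same pathways hold other genes that were not among the 39. Of 52 further recombination, Fanconi and checkpoint genes, 51 could be tested (all but Dmc1, the meiotic recombinase), and 32 (62.7%) were higher, with 0 lower in edgeR's test, 0 lower at an unadjusted p under 0.05 and 0 lower by DESeq2 or limma-voom. Their median log2 fold change was 0.78 and their range -0.32 to 6.58. Clspn, the adaptor through which ATR activates CHK1, Fignl1, an ATPase that acts in recombination, and Parpbp, a PARP1-binding inhibitor of recombination, were the highest, at log2 fold changes of 6.58, 6.52 and 6.12. Rad51d, singled out after its values were seen, had a log2 fold change of -0.03 (edgeR adjusted p = 0.849).

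Replication fork genes were higher in 36 of 37 (97.3%), with a median log2 fold change of 2.83. The 3 highest were Cdc6, a loader of the replicative helicase, at 6.52, the helicase subunit gene Mcm5 at 5.40 and Gins2, of the GINS complex of the helicase, at 5.04. Exons of Gse1 on the other strand cover 67.3% of the exon bases of Gins2, so its value is less certain. Mcm10, a helicase-associated factor, was lower. It was at 109, 65.7 and 67.9 CPM at 0 h and at 39.1, 39.6 and 63.7 CPM at 48 h (log2 fold change -0.77, edgeR adjusted p = 0.0222). Without replicate 1 at 0 h, or without replicate 1 or 2 at 48 h, its call in edgeR's test was lost.

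The remaining repair routes had smaller medians. In nonhomologous end joining, which ligates ends without a template, 3 of 11 genes were higher, namely Dntt (1.42), Lig4 (0.84) and Xrcc6 (0.76) by log2 fold change, and Paxx (-1.03) and Dclre1c (-0.98) were lower, with a median of 0.18. These shares, 27.3% higher and 18.2% lower, were near the 21.4% and 19.3% of all genes tested. In nucleotide excision repair, which cuts out bulky lesions, 5 of 18 were higher (27.8%) and 4 lower (22.2%), also near the shares of all genes tested, with a median of -0.01. The highest there were Cetn2 (0.81), Ddb2 (0.53) and Ddb1 (0.50) and the lowest Xpc (-0.64), Xpa (-0.48) and Uvssa (-0.41). These counts depended on single libraries. The higher count fell to between 1 and 3 without any 1 library other than replicate 1 at 48 h, the lower count fell to 1 or 2 without any 1 library other than replicate 2 at 0 h, and upper quartile scaling left 2 higher. In base excision repair, which replaces single damaged bases, 8 of 18 were higher (44.4%) and 2 lower (11.1%), with a median of 0.31. Neil3, a glycosylase gene, reached 6.49, followed by the uracil glycosylase gene Ung at 2.90 and Mutyh at 2.34, and Nthl1 (-0.74) and Smug1 (-0.40) were lower, a count that fell to 0 or 1 without any 1 library other than replicate 2 at 0 h. In mismatch repair 3 of 6 were higher, among them Pms2 (1.43), with a median of 0.34. Differences between the lists were not tested.

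**Figure D4:**
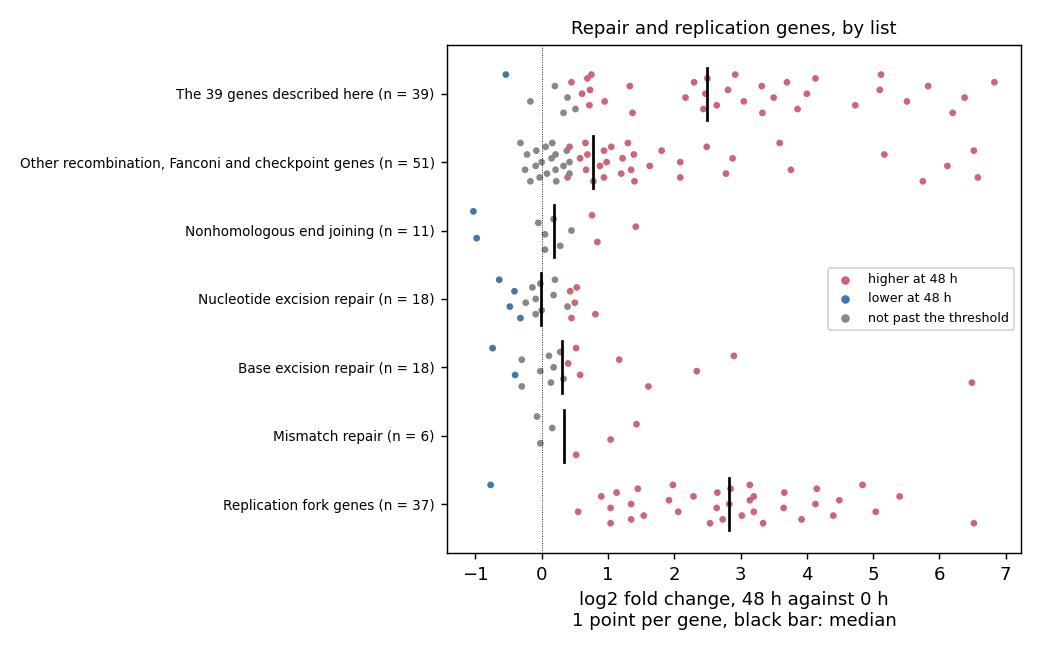
Log2 fold change at 48 h after PHx against 0 h (x axis) for each gene of the 39 and of 6 lists of other repair and replication genes, with 1 point per gene, a black bar at the median and color for the call. The medians are 2.50 for the 39 genes, 0.78 for other recombination, Fanconi and checkpoint genes and 2.83 for replication fork genes, and between -0.01 and 0.34 for the other 4 lists.

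The median coefficient of variation between replicates over the 39 genes was 14.8% at 0 h and 8.31% at 48 h (n = 3 each). Some genes with few counts at 0 h spread more widely there, such as Exo1 (mean 0.129 CPM, SD 0.0880 CPM) and Polq (mean 0.324 CPM, SD 0.173 CPM). Replicate 3 at 48 h was the lowest of its group in 23 of the 33 higher genes (69.7%), and replicate 1 was the highest in 22 (66.7%). Among all 3638 higher genes these shares were 49.4% and 46.0%. The median log2 distances to the group mean were small, at 0.07, 0.01 and -0.09 for replicates 1, 2 and 3.

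The 10 hepatocyte markers summed to 99572 to 119040 CPM at 0 h and to 72144 to 76036 CPM at 48 h, with 5 of them lower in edgeR's test, so the labelled cell type carried its markers in every library. By the same sum, without TMM factors, 11 Kupffer cell and macrophage markers stood at 77.3 to 115 CPM at 0 h and at 121 to 160.2 CPM at 48 h, with 3 genes, Marco, Cd5l and Cd68, higher in edgeR's test. With TMM factors that sum was 82.7 to 124 CPM and 119 to 146 CPM, so the groups overlapped (exact permutation p = 0.300). The 10 endothelial markers stood at 252 to 398 CPM at 0 h and at 190.1 to 233 CPM at 48 h, and all 10 were lower. Lymphocyte markers (10 genes) were at 2.72 to 4.01 CPM and then at 1.72 to 2.60 CPM, with 7 of them at 3 counts or fewer in every library, and erythroid markers (6 genes) were at 53.1 to 81.0 CPM and then at 19.1 to 44.7 CPM. Each of these 5 sums without TMM factors had an exact permutation p of 0.1, the smallest possible, and all but the Kupffer cell and macrophage sum kept it with TMM factors. The neutrophil markers (8 genes, 5 of them at 3 counts or fewer in every library) stood at 1.04 to 1.15 CPM and 0.967 to 1.65 CPM, cholangiocyte markers (6 genes, 3 of them at 3 counts or fewer) at 8.69 to 19.3 CPM and 17.9 to 28.7 CPM, and stellate cell markers (7 genes) at 67.0 to 109 CPM and 64.1 to 83.1 CPM, and these groups overlapped. Single markers in these lists passed edgeR's test, namely Col1a1, 4.93-fold higher, and Reln, lower, for stellate cells, Spp1, 2.84-fold higher, for cholangiocytes, and Csf3r, lower, for neutrophils. The part of other cell types in the values of the 39 genes was not tested.

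Exons of other genes cover at least 10% of the exon bases of 10 of the 39 genes, on the same strand in Rad54b and Atrip and on the other strand in Rad54l, Fanca, Fancc, Fancf, Fancl, Fanci, Eme1 and H2afx. The counting mode and the strand setting are not given in the sources used here, so the levels of these 10 genes are less certain than those of the 20 genes that share no exon base. The same holds for Parpbp, Ddb2 and Gins2 among the other genes named, with 12.1%, 23.8% and 67.3% of their exon bases in exons on the other strand. It also holds for the marker Spp1, with 18.8% of its exon bases in exons of Gm42793 on the same strand.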

How the data were processed

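The authors deposited raw read counts per gene for each library. The submitters' processing notes name FastQC 0.11.5, Trim Galore 0.6.4, STAR 2.6, HTSeq 0.12.4, DESeq2 and mm10. Gene counts summed to 31419443 to 36346220 at 0 h and 31684152 to 33093006 at 48 h, so 3 counts were 0.0839 to 0.102 CPM; such floors cover counting error only. Reads on no gene were 24.3% to 32.7% of each file. The time points were compared with edgeR 4.0.16 (TMM, glmQLFit and glmQLFTest, time as the only term) over genes reaching 10 counts in 3 or more libraries, with Benjamini-Hochberg adjustment; the SE is the log2 fold change divided by the square root of F. The test was also run on data simulated from the levels and dispersions of the main fit. Every library differed from the others of its group beyond sampling noise. The replicate numbers do not pair animals (correlation of same-numbered deviations 0.0335, -0.0674 and -0.138). Genes were named from the 39 chosen, and from other lists the 3 highest and 3 lowest called, apart from a few that are not reported here. The members and lists were chosen with earlier results of these data known. Alternatives were other normalizations, filters, thresholds, DESeq2 1.42.0, limma-voom (limma 3.58.1), a replicate block and leaving out each library.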

Additional observations from a re-analysis of the deposited data

How the results depend on the processing

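With TMM normalization the median log2 fold change of all genes was 0.00, and scaling by library size alone moved it by 0.20, giving 5309 higher and 2108 lower genes in place of 3638 and 3288. With it 37 of the 39 genes were higher and 0 lower (Fance at -0.33), Mus81 reversed to 0.02, Xrcc3, Fancc, Fancf and Atrip passed at 0.59, 0.53, 0.71 and 0.40, higher and lower counts were 5 in end joining (higher), 8 and 1 in nucleotide excision repair, and 0 lower in base excision repair and at the fork. A threshold of 1 on the size of the log2 fold change gave 1651 higher and 1353 lower genes, 26 and 0 of the 39, 2 of the break-end group, 21 of the other recombination genes, 1 and 1 in end joining, 0 and 0 in nucleotide excision repair, 5 and 0 in base excision repair and 0 lower at the fork. In each other setting 33 of the 39 were higher. The replicate block changed no call among the 39 genes. With it the counts were 33 and 1 of the 39, 3 and 2 in nucleotide excision repair and 1 lower in base excision repair. Without a filter, 2 genes were lower in nucleotide and 1 in base excision repair; upper quartile scaling gave 2 higher in nucleotide excision repair and TMM factors from coding genes, added after seeing the data, gave 3. Leaving out each library gave 33 to 33 higher and 0 to 1 lower of the 39, 2874 to 3451 higher and 2638 to 3223 lower of all genes, 1 to 4 higher and 1 to 3 lower in nucleotide excision repair, 0 to 2 lower in base excision repair and 0 to 1 lower at the fork. The cause was not tested. No pair ratio changed its direction. Genes with fewer than 10 counts at 0 h, such as Rad51ap1, have folds limited by depth.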
